A study of Mus musculus with 9 samples.

Results

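The potassium channel subunit genes of the perinatal mouse heart are the subject of the measurements that follow. They were chosen by name: every gene whose symbol begins with Kcn, followed by lower-case letters and ending in a number, which takes in pore-forming and accessory subunits and leaves out antisense transcripts. Of 48820 genes in the table, 92 matched the name, and 40 of these reached a mean of 0.5 FPKM (fragments per kilobase of transcript for every 1000000 mapped) over the 9 hearts. The other 52 were lower, and 3 of them (Kcnk16, Kcna10 and Kcnk15) were listed at 0 in every heart.

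RNA was sequenced from whole hearts of untreated wild-type C57BL/6J mice, an inbred strain, at embryonic day 18.5 (E18.5d), on postnatal day 1 (P1d) and on postnatal day 7 (P7d). Each stage had 3 biological replicates, so that the stages before birth, just after it and at the end of the first postnatal week could be compared. All animals were labelled male, but in 4 hearts (E18.5d replicates 1 and 3, P7d replicates 2 and 3) Xist, the transcript of the inactive X chromosome, lay between 58.03 and 97.03 FPKM and 4 Y-linked genes were at 0, whereas Xist was at most 0.11 FPKM in the other 5. None of the 3 P1d hearts was among the 4, so this difference is shared unequally between the stages. The fit had no term for it. The direction of the called changes is therefore also given without these hearts, and the counts called in each comparison are over all 9.

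The smallest steps between low values put the depth at 25000000 to 37000000 fragments for the E18.5d hearts, 27250000 to 29500000 for P1d and 36000000 to 44750000 for P7d. At 0.5 FPKM a transcript then had 12.5 to 22.4 fragments per kilobase, so the lowest genes rest on few fragments. The labelled tissue was borne out by its markers, with 6 cardiomyocyte genes summing to 17845 to 23573 FPKM in every heart. The summed level of 6 atrial markers was 6576 to 7748 FPKM at E18.5d, 6571 to 6966 at P1d and 3372 to 3594 at P7d, and at P7d 6 of 6 had fallen from E18.5d. The part of this shift in the potassium channel results was not tested. In bulk tissue, fewer cells of a type and less RNA per cell cannot be told apart. Of the summed FPKM, 36.5% to 37.3% fell to protein-coding nuclear genes at E18.5d and 30.2% to 33.5% at P7d, and the median gene was 0.17 lower at P7d than at E18.5d on the log2 scale. After median-of-ratios scaling that median was 0.00, and the share of calls that were higher went from 25.3% to 54.7%. Changes are therefore given on the deposited scale, and calls that another scaling ended are named.

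Potassium channels set the resting potential of heart muscle cells and end the action potential. Voltage-gated alpha subunits (Kv) open on depolarization and carry the transient outward and delayed rectifier currents, inward rectifiers (Kir) hold the resting potential, and K2P channels, whose subunits have a tandem pore domain, pass a background leak. Accessory subunits, such as the KCNE, KChIP and Kv beta proteins, carry no current of their own and alter the gating or surface number of the alpha subunits. In the mouse ventricle, repolarization is known to shorten after birth.

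The 40 genes covered each of 15 subunit classes. Their summed level was 347 to 354 FPKM at E18.5d, 372 to 380 at P1d and 543 to 571 at P7d, so every P7d heart was above every earlier heart. The 31 pore-forming genes summed to 212 to 219 FPKM at E18.5d, 228 to 242 at P1d and 251 to 260 at P7d. The 9 accessory genes summed to 128 to 142 FPKM at E18.5d, 136 to 143 at P1d and 292 to 311 at P7d. Most of the accessory sum was Kcne1, which alone made up 22.3% to 28.3% of the 40 genes in the E18.5d and P1d hearts and 42.5% to 43.4% in the P7d hearts. FPKM is scaled by transcript length, so these levels can be set beside each other. Kcne1 ranked first and Kcnip2, a KChIP, ranked second at each stage.

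**Figure D1:**
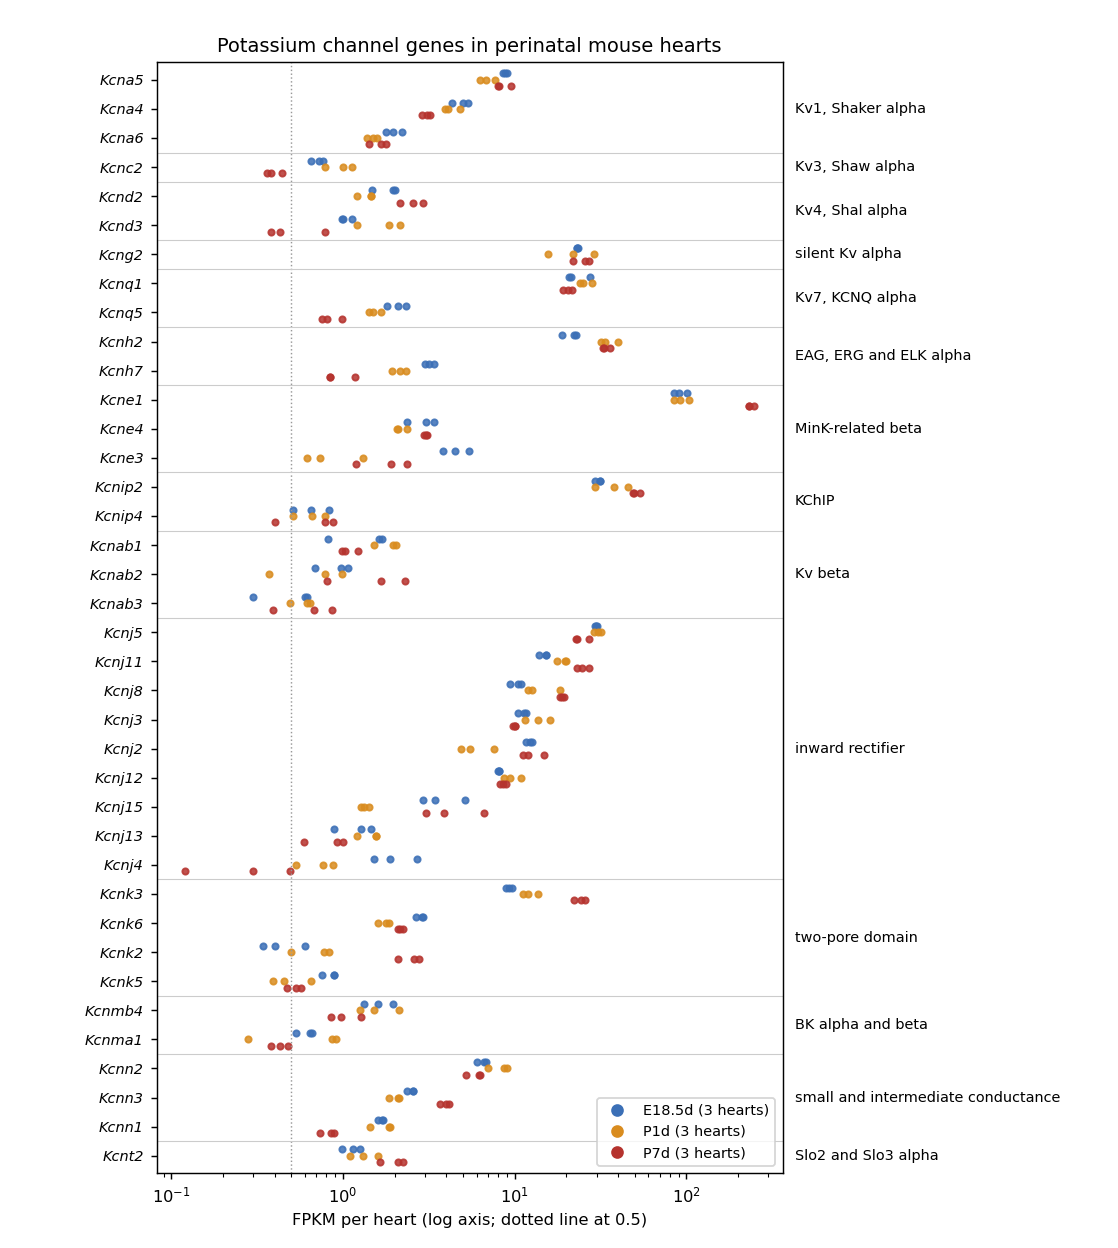
FPKM of 38 of the 40 potassium channel genes in each of 9 hearts on a log axis, grouped by subunit class (right), with 3 points per stage and a dotted line at 0.5 FPKM. The genes span from Kcnj4 at 0.12 FPKM in 1 P7d heart to Kcne1 at 248 FPKM, and Kcne1, Kcnk3 and Kcnk2 lie clearly to the right at P7d.

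At P7d against E18.5d, 12 of the 40 genes were higher and 9 lower by limma's moderated test with Benjamini-Hochberg adjustment over 15565 genes at 0.05, and 19 passed in neither direction. Among all genes tested, 11.5% were higher and 34% lower. The median log2 change of the 40 genes was -0.01, beside -0.17 for all genes. With median-of-ratios scaling 13 were higher and 6 lower, where 20.8% and 17.3% of all genes were. Of the 12 higher genes, 10 were called in all of 19 other settings (scalings, filters, pseudocount, model terms and each heart left out), among them Kcne1, Kcnk3, Kcnk2, Kcnj8, Kcnj11, Kcnip2, Kcnh2, Kcnn3 and Kcnt2. Of the 9 lower genes, 6 were, namely Kcnj4, Kcnh7, Kcne3, Kcnq5, Kcnn1 and Kcna4. The 19 do not include the fit without the 4 hearts with Xist, in which no call held and 2 stages had 1 heart. They also leave out a minimum change of 1 on the log2 scale. It left 4 higher and 2 lower, where 271 and 391 of all 15565 genes were.

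At P1d against E18.5d, across birth, 6 genes were higher, 8 lower and 26 passed in neither direction, where 16.7% of all genes were higher and 25.3% lower. The median change was 0.03, beside -0.06 for all genes. This split was 9 higher and 6 lower after median-of-ratios scaling, where 21.4% and 20.4% of all genes were, and 2 higher and 12 lower when the hearts were scaled to equal sums, where 7.93% and 31.3% were. At P7d against P1d, 15 genes were higher, 11 lower and 14 passed in neither direction, where 13.9% of all genes were higher and 26.4% lower. The median change was 0.06, beside -0.09 for all genes. After median-of-ratios scaling 17 were higher and 8 lower, where 21.1% and 16.8% of all genes were, and after scaling to equal sums 15 and 5, where 14.3% and 11.8% were. The comparisons share hearts, so they are not independent of each other. Without the 4 hearts with Xist, E18.5d and P7d had 1 heart each. No call held in that fit, which cannot decide the calls with so few hearts. All 21, 14 and 26 called changes kept their direction there. Hearts of the 2 stages overlapped in only 1 of these changes, Kcne3 at P7d against P1d, so leaving hearts out could not reverse the others.

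**Figure D2:**
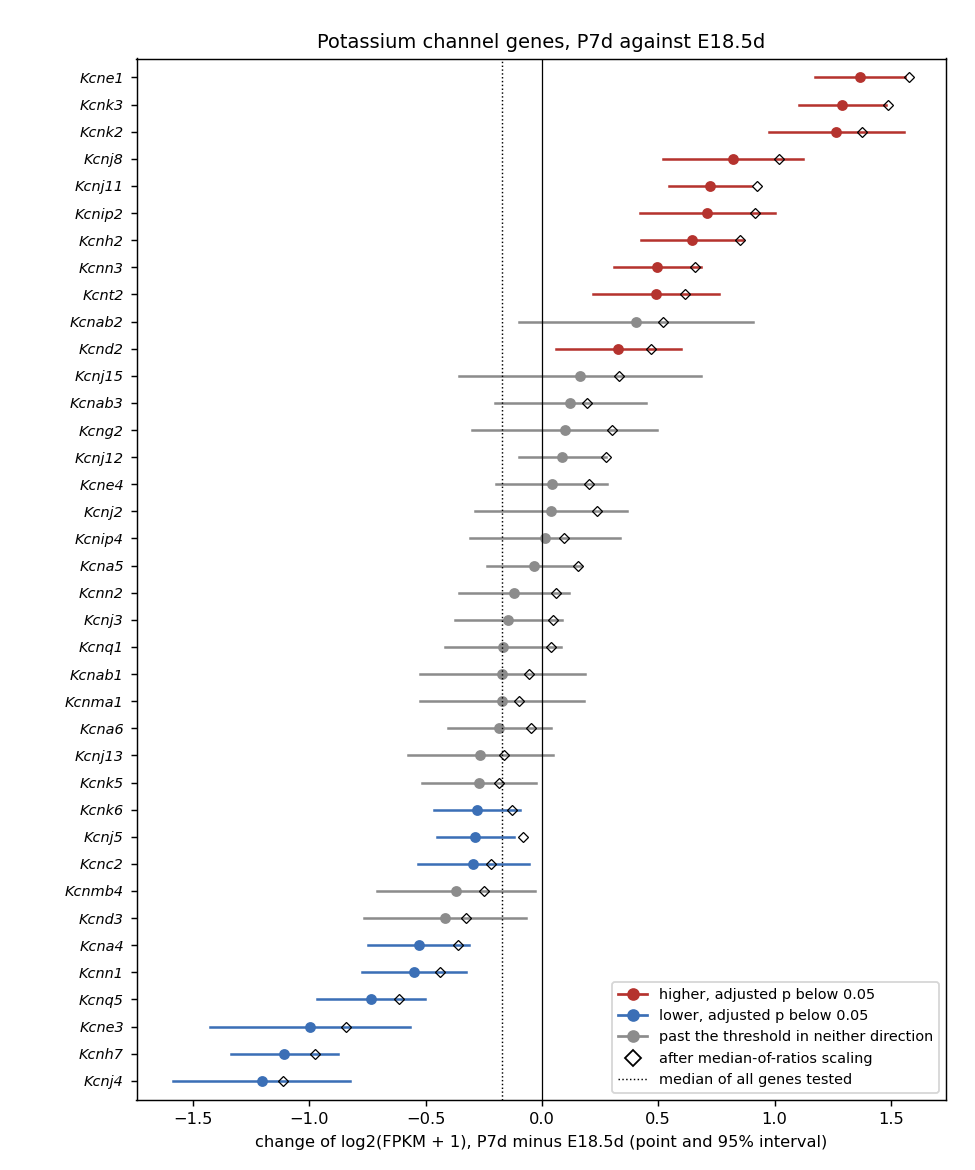
Change of log2(FPKM + 1) from E18.5d to P7d for 38 of the 40 potassium channel genes, as the estimate (point) and its 95% interval (line), with 3 hearts a stage; colours give the call, diamonds the estimate after median-of-ratios scaling, and the dotted line the median of all genes at -0.17. Kcne1 (1.37) and Kcnk3 (1.29) are at the top and Kcnj4 (-1.21) and Kcnh7 (-1.11) at the bottom, and the diamonds lie to the right of the points throughout.

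Among the genes of the slow delayed rectifier, the accessory subunit rose and the pore did not. Kcne1 (chr16:92345982-92359468 in GRCm38, minus strand) encodes minK, the beta subunit that slows the channel formed by Kcnq1. Its level was 90.3, 100.4 and 85.0 FPKM in the E18.5d hearts, 91.5, 84.6 and 103.8 in the P1d hearts and 248, 233 and 233 in the P7d hearts. All 3 P7d hearts stood far above the other 6, which overlapped. Kcne1 at P7d was 2.59-fold its E18.5d level (log2 change 1.37 ± 0.09 SE, adjusted p = 4.59e-06) and 2.55-fold its P1d level (1.35 ± 0.09, adjusted p = 1.43e-05), while its change across birth was 0.02 (adjusted p = 0.867). Kcnq1, the alpha subunit, was at 21.3, 20.6 and 27.6 FPKM at E18.5d, 25.1, 28.2 and 23.9 at P1d and 21.7, 20.5 and 19.0 at P7d. Its stages overlapped except for P7d and P1d, where a fall of 0.32 (adjusted p = 0.0443) was lost in each of 3 other scalings (adjusted p 0.185 to 0.279) and without any heart but E18.5d replicates 2 and 3 and P1d replicate 3 (adjusted p 0.0534 to 0.135). The ratio of Kcne1 to Kcnq1 within a heart was 4.06 ± 0.909 (SD, n = 3) at E18.5d, then 3.66 ± 0.669 at P1d and 11.7 ± 0.475 by P7d, with no overlap between P7d and the others. A ratio within a heart does not depend on how the hearts are scaled to each other.

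The other KCNE genes moved otherwise. Kcne3, which makes Kcnq1 channels constitutively open, was at 5.42, 3.83 and 4.46 FPKM at E18.5d, 0.62, 0.73 and 1.31 at P1d and 1.89, 2.36 and 1.19 at P7d. It was at its lowest just after birth, with the P1d and P7d ranges overlapping. It fell by 1.57 ± 0.19 SE across birth (adjusted p = 0.000231) and remained 1.00 ± 0.19 lower at P7d than at E18.5d (adjusted p = 0.00255). Its rise of 0.57 from P1d to P7d (adjusted p = 0.0387) was lost on leaving out E18.5d heart 3, P1d heart 1 or 2, or P7d heart 1 or 2 (adjusted p 0.0557 to 0.134). Kcne4, an inhibitory beta subunit, was at 3.39, 3.06 and 2.37 FPKM at E18.5d, 2.08, 2.07 and 2.35 at P1d and 3.08, 3.05 and 2.96 at P7d. Its fall of 0.31 across birth (adjusted p = 0.0428) was lost under median-of-ratios scaling (adjusted p = 0.0864) and without any heart but E18.5d replicate 3 and P1d replicate 3 (adjusted p 0.0609 to 0.139). Its rise of 0.35 by P7d (adjusted p = 0.0272) was lost on leaving out P1d heart 1 or 2 or any P7d heart (adjusted p 0.0614 to 0.0735). Kcnq5, another KCNQ alpha subunit, went from 2.09, 2.33 and 1.81 FPKM through 1.41, 1.66 and 1.50 to 0.75, 0.81 and 0.98. It fell by 0.73 ± 0.10 from E18.5d to P7d (adjusted p = 0.00047) and by 0.45 ± 0.10 from P1d (adjusted p = 0.00754).

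The ERG genes, whose channels carry the rapid delayed rectifier, moved in opposite directions. Kcnh2 (ERG1), the main cardiac ERG channel, was at 22.9, 22.1 and 18.9 FPKM at E18.5d, 31.7, 39.7 and 33.5 at P1d and 33.1, 35.8 and 32.5 at P7d. The step came across birth: it rose by 0.69 ± 0.10 to P1d (1.64-fold, adjusted p = 0.000543), stood 0.65 ± 0.10 above E18.5d at P7d (adjusted p = 0.000711), and its change from P1d to P7d was -0.04 (95% interval -0.26 to 0.18). Kcnh7 (ERG3; chr2:62693414-63184287, minus strand), best known from neurons, was at 3.16, 3.01 and 3.40 FPKM at E18.5d, 1.92, 2.15 and 2.33 at P1d and 0.84, 0.84 and 1.17 at P7d. No stages overlapped, and it was the 1 gene of the 40 called lower in both steps, as 2.65% of all genes were. It fell by 0.42 ± 0.10 across birth (adjusted p = 0.00928), a call lost with Xist as a covariate (adjusted p = 0.0715), by 0.69 ± 0.10 from P1d to P7d (adjusted p = 0.000824) and by 1.11 ± 0.10 in all (adjusted p = 4.4e-05). The ratio of Kcnh7 to Kcnh2 was 0.151 ± 0.0247 (SD, n = 3) at E18.5d, then 0.0614 ± 0.00774 at P1d and 0.0283 ± 0.00677 by P7d.

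**Figure D3:**
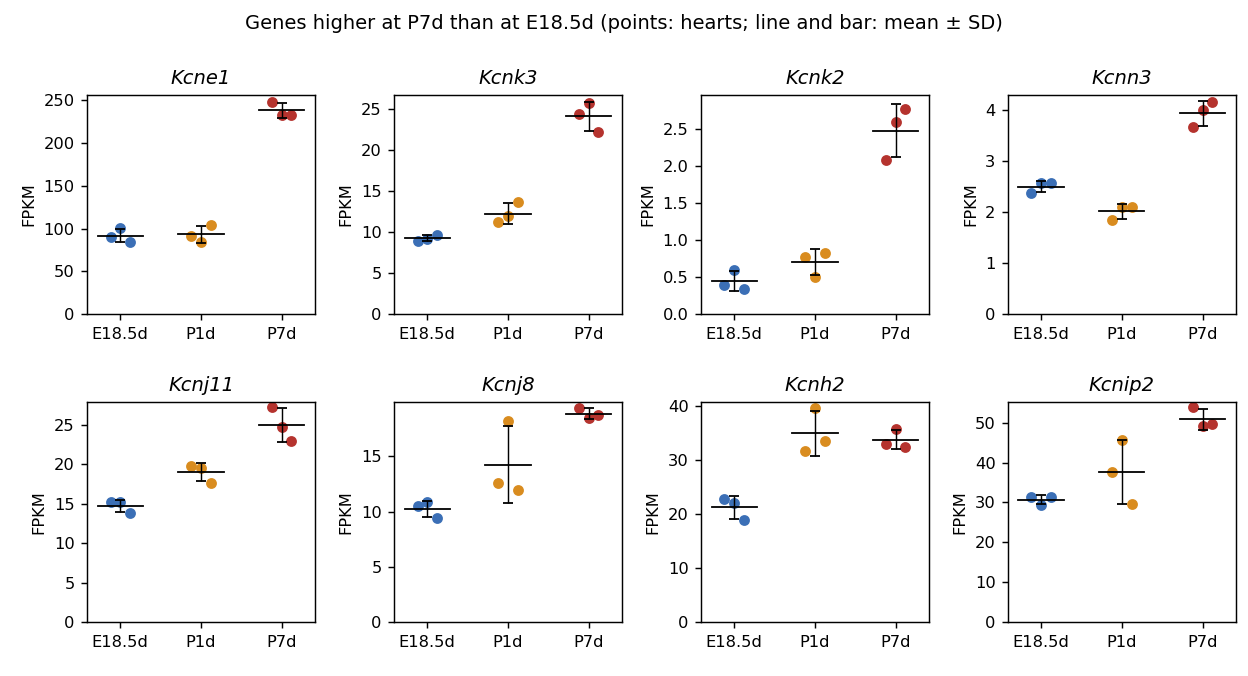
FPKM in each heart (points; 3 a stage, linear axes from 0) with the mean and SD (black) of 8 genes that rose from E18.5d to P7d. Kcne1, Kcnk3 and Kcnk2 rise mostly after P1d, Kcnj11 in both steps, and Kcnh2 is already at its P7d level in the P1d hearts.

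The Kv4 alpha subunits carry the fast transient outward current, which repolarizes the rodent ventricle early in each beat. Kcnd2 (Kv4.2; chr6:21215503-21729805, plus strand) was at 1.96, 1.48 and 2.01 FPKM at E18.5d, 1.21, 1.46 and 1.46 at P1d and 2.93, 2.14 and 2.54 at P7d. Kcnd3 (Kv4.3; chr3:105452330-105674002, plus strand) was at 1.12, 1.00 and 0.98 FPKM at E18.5d, 1.84, 2.14 and 1.20 at P1d and 0.38, 0.79 and 0.43 at P7d. The P1d hearts were the lowest for Kcnd2 and the highest for Kcnd3. From P1d to P7d, Kcnd2 rose by 0.57 ± 0.12 SE (1.84-fold, adjusted p = 0.00492) and Kcnd3 fell by 0.82 ± 0.15 (adjusted p = 0.00273), and both calls held in all 19 other settings. The steps from E18.5d to P1d did not pass the threshold (Kcnd2 -0.24, adjusted p = 0.132; Kcnd3 0.41, adjusted p = 0.0587). At P7d against E18.5d, Kcnd2 was higher by 0.33 (adjusted p = 0.0486), which was called in only 4 of 19 other settings. It was lost with equal sums (adjusted p = 0.105) and without any heart but P7d replicate 2 (adjusted p 0.0538 to 0.161). Kcnd3 changed by -0.42 (adjusted p = 0.0517; 0.035 with equal sums). The sum of the pair was 2.48 to 3.08 FPKM at E18.5d, 2.66 to 3.60 at P1d and 2.93 to 3.31 at P7d, ranges that overlapped. The ratio of Kcnd3 to Kcnd2 within a heart was 0.571, 0.676 and 0.488 at E18.5d, 1.52, 1.47 and 0.822 at P1d and 0.13, 0.369 and 0.169 at P7d, with no overlap between any stages.

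The 250 bases before the start of transcription of these genes, whose levels moved in opposite directions in the first postnatal week, follow from RefSeq on GRCm38.p6, 5′ to 3′, with matches to any of 6 searched motifs in capitals. The RefSeq starts lie before the gene starts given above. Kcnd2 is chr6:21215096-21215345 and Kcnd3 is chr3:105451640-105451889, both on the plus strand.
Kcnd2: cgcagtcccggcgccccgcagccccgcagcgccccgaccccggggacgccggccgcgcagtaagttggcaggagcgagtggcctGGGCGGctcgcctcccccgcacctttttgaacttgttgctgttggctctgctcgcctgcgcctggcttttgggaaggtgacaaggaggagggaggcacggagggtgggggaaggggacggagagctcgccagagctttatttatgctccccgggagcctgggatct
Kcnd3: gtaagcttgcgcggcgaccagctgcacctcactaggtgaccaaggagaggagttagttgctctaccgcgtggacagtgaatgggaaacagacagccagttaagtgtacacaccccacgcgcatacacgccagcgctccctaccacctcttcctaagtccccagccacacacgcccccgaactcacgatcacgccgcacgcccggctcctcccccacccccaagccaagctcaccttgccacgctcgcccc
The motifs searched on both strands were TATAAA for the TATA box, GGGCGG for the box bound by Sp factors, AGATAA for GATA factors, TCAAGGTCA for oestrogen-related receptors, TGACGTCA for CREB and CACGTG for the E-box. Kcnd2 had 1 match, to GGGCGG, and Kcnd3 had none. GGGCGG was present in 32.7% of 32851 mouse promoter windows of this length and in 17 of 44 windows of the potassium channel genes, of which 30 of 40 had at least 1 window. The windows of Kcnd2 and Kcnd3 were 68.8% and 62.8% G and C, beside a median of 52.4% for all windows. A match is a description of the letters and no evidence of binding.

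Kcnip2, the KChIP that Kv4 channels need for surface expression, was at 31.4, 29.5 and 31.3 FPKM at E18.5d, 37.7, 45.6 and 29.5 at P1d and 53.9, 49.1 and 49.6 at P7d. The P7d hearts were above all others, and the P1d hearts spread over most of the range between. It rose by 0.71 ± 0.13 SE from E18.5d to P7d (1.66-fold, adjusted p = 0.0019). Its rise of 0.45 from P1d (adjusted p = 0.0214) was lost without P7d replicate 1 (adjusted p = 0.0695) and with Xist as a covariate (adjusted p = 0.0765). Kcnip4 was at 0.40 to 0.87 FPKM in all hearts and passed in no comparison. There were 15.5 to 31.2 Kcnip2 transcripts, by FPKM, for each of Kcnd2 in every heart.

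Kcng2, a silent Kv subunit that forms channels only together with other Kv alpha subunits, varied most at P1d. Its level was 23.3, 23.0 and 23.1 FPKM at E18.5d, 28.8, 15.7 and 21.9 at P1d and 21.8, 27.2 and 25.7 at P7d, and it passed in no comparison (P7d against E18.5d 0.10, 95% interval -0.30 to 0.49).

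Of the Kv1 subunits, Kcna4 (Kv1.4), which carries a slowly recovering transient outward current, was at 4.29, 5.01 and 5.33 FPKM at E18.5d, 4.80, 3.94 and 4.11 at P1d and 2.88, 3.07 and 3.23 at P7d. It fell by 0.53 ± 0.10 SE from E18.5d to P7d (adjusted p = 0.00203) and by 0.38 ± 0.10 from P1d (adjusted p = 0.0131). The latter was lost with equal sums (adjusted p = 0.186) and with Xist as a covariate (adjusted p = 0.0547). Kcna5 (Kv1.5), an ultrarapid delayed rectifier, was at 8.96, 8.76 and 8.51 FPKM at E18.5d, 6.26, 7.71 and 6.80 at P1d and 8.10, 8.02 and 9.5 at P7d. The P1d hearts were the lowest. Its fall of 0.30 across birth (adjusted p = 0.0225) was lost after median-of-ratios scaling (adjusted p = 0.0611) and with Xist as a covariate (adjusted p = 0.114). Leaving out E18.5d heart 1 or 2 or P1d heart 1 also ended that fall (adjusted p 0.0614 to 0.0773). Its rise of 0.27 from P1d (adjusted p = 0.038) was lost without any heart but P1d replicate 2 (adjusted p 0.0512 to 0.136). The ratio of Kcna4 to Kcna5 was 0.559 ± 0.0746 (SD, n = 3) at E18.5d, then 0.627 ± 0.129 at P1d and 0.359 ± 0.0217 by P7d, where no P7d heart overlapped the others. Kcna6, at 1.37 to 2.20 FPKM, passed in no comparison. Kcnc2 (Kv3.2), at 0.65 to 0.76 FPKM at E18.5d, 0.79 to 1.12 at P1d and 0.36 to 0.44 at P7d, fell by 0.50 ± 0.11 from P1d to P7d (adjusted p = 0.00529). Its fall of 0.30 from E18.5d to P7d (adjusted p = 0.0454) was lost in each of 3 other scalings (adjusted p 0.0772 to 0.225) and without any heart but P1d replicates 2 and 3 (adjusted p 0.0578 to 0.108).

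The strong inward rectifiers, which carry the resting current of the ventricle, did not move together. Kcnj2 (Kir2.1; chr11:111066164-111076821, plus strand) was at 11.6, 12.3 and 12.7 FPKM at E18.5d, 5.51, 4.85 and 7.57 at P1d and 14.9, 11.9 and 11.1 at P7d. All P1d hearts were below all others, and E18.5d and P7d overlapped. It fell by 0.94 ± 0.14 SE across birth (adjusted p = 0.000858) and rose by 0.98 ± 0.14 by P7d (2.11-fold, adjusted p = 0.000807), and both calls held in all 19 other settings. Between E18.5d and P7d the change was 0.04 (95% interval -0.29 to 0.36). Kcnj12 (Kir2.2) was at 8.05, 7.94 and 8.06 FPKM at E18.5d, 8.65, 10.9 and 9.39 at P1d and 8.25, 8.90 and 8.59 at P7d. Its rise of 0.24 across birth (adjusted p = 0.0451) was lost with equal sums (adjusted p = 0.487) and without any heart but P1d replicate 1 (adjusted p 0.0599 to 0.115). Its change of 0.09 between E18.5d and P7d (adjusted p = 0.42) passed after median-of-ratios scaling (0.28, adjusted p = 0.0321). The ratio of Kcnj12 to Kcnj2 was 0.695, 0.644 and 0.636 at E18.5d, 1.57, 2.26 and 1.24 at P1d and 0.555, 0.748 and 0.772 at P7d, so that Kcnj12 was the more abundant only in the P1d hearts.

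Kcnj4 (Kir2.3; chr15:79483714-79505241, minus strand) fell the most of the 40 genes by P7d. It was at 1.87, 1.51 and 2.69 FPKM at E18.5d, 0.76, 0.87 and 0.53 at P1d and 0.49, 0.12 and 0.30 at P7d, with no overlap between stages. The fall was 0.80 ± 0.17 SE across birth (adjusted p = 0.00456) and 1.21 ± 0.17 from E18.5d to P7d (adjusted p = 0.000462), while that from P1d to P7d was 0.40 (adjusted p = 0.0837) and did not pass. Kcnj15 (Kir4.2), an epithelial type of inward rectifier, had the same order of stages as Kcnj2. It was at 2.93, 3.43 and 5.16 FPKM at E18.5d, 1.28, 1.42 and 1.33 at P1d and 3.85, 3.06 and 6.65 at P7d. The change was -1.02 ± 0.23 across birth (adjusted p = 0.00654) and 1.18 ± 0.23 from P1d to P7d (adjusted p = 0.00337). Kcnj13 (Kir7.1), at 0.59 to 1.56 FPKM, was lower at P7d than at P1d by 0.41 (adjusted p = 0.0391), which was lost in each of 3 other scalings (adjusted p 0.0664 to 0.141) and on leaving out E18.5d heart 2, P1d heart 1 or 2, or P7d heart 2 or 3 (adjusted p 0.0536 to 0.13). Of the 1270 exon bases of Kcnj13, 623 lie opposite Gigyf2 (21.4 FPKM), and the library kit did not mark strand, so reads of the 2 genes cannot be told apart there.

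Counting the shape over the 3 stages, 5 of the 40 genes were lower at P1d than at E18.5d and higher at P7d than at P1d, where 7.84% of all genes were. These were Kcnj2, Kcnj15, Kcne3, Kcne4 and Kcna5, of which Kcnj2 and Kcnj15 held in all 19 other settings in both steps. On the deposited scale none of the 40 was called in the opposite shape, with a peak at P1d, which 9.93% of all genes had. That absence depended on the scaling. After median-of-ratios scaling, and after quantile normalization, Kcnj3, Kcnn2 and Kcnd3 passed as higher at P1d than at E18.5d. Their falls from P1d to P7d also passed under both scalings. The share of all genes with that shape was not counted under either. In both steps 4 of the 40 genes were higher, among them Kcnk3, Kcnj11 and Kcnj8, as were 1.3% of all genes. The step across birth was lost with equal sums for each of these 3.

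**Figure D4:**
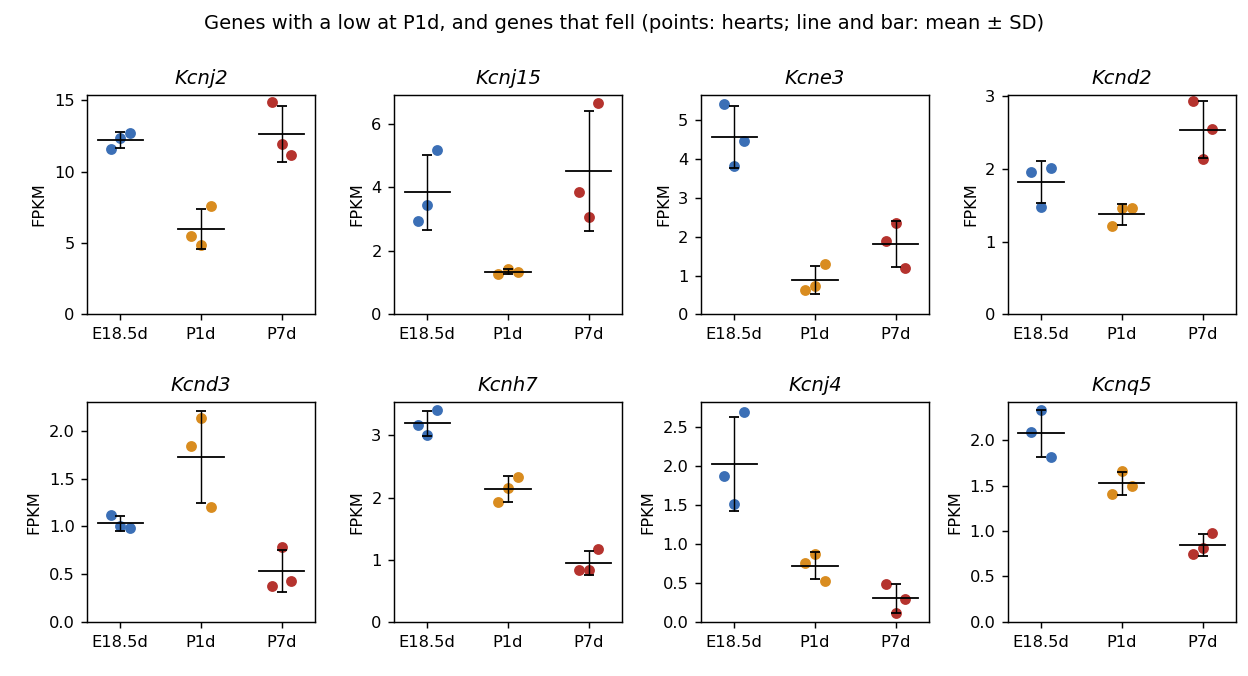
FPKM in each heart (points; 3 a stage, linear axes from 0) with the mean and SD (black) of 8 genes. Kcnj2, Kcnj15 and Kcne3 are lowest at P1d, Kcnd2 and Kcnd3 have opposite orders at P1d and P7d, and Kcnh7, Kcnj4 and Kcnq5 descend from E18.5d to P7d.

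The ATP-sensitive (KATP) pore genes rose together with their sulphonylurea receptors. Kcnj11 (Kir6.2), the pore of ventricular KATP channels, which open when ATP falls, was at 15.2, 15.2 and 13.9 FPKM at E18.5d, 19.9, 19.6 and 17.7 at P1d and 27.2, 24.7 and 23.0 at P7d, with no overlap between stages. It rose by 0.35 ± 0.08 SE across birth (adjusted p = 0.00623), by 0.37 ± 0.08 from P1d to P7d (adjusted p = 0.00506) and by 0.72 ± 0.08 in all (1.69-fold, adjusted p = 0.000111). The rise across birth was lost after scaling to equal sums (0.18, adjusted p = 0.182) and with Xist as a covariate (adjusted p = 0.0569). Kcnj8 (Kir6.1), known from vascular KATP channels, was at 10.5, 10.9 and 9.44 FPKM at E18.5d, 12.6, 18.3 and 12.0 at P1d and 19.4, 18.5 and 18.8 at P7d. From E18.5d to P7d it rose by 0.82 ± 0.13 (1.84-fold, adjusted p = 0.00108). Its separate steps, 0.42 across birth (adjusted p = 0.0319) and 0.40 to P7d (adjusted p = 0.0377), were less firm. The former was lost with equal sums (0.26, adjusted p = 0.0781), with Xist as a covariate (adjusted p = 0.148) and without any 1 of the E18.5d hearts (adjusted p 0.0558 to 0.102), and the latter with Xist as a covariate (adjusted p = 0.0804) and without any heart but E18.5d replicate 3 and P1d replicate 2 (adjusted p 0.0536 to 0.118). The 8 smooth muscle and pericyte markers, which include Abcc9, summed to 807 to 970 FPKM at E18.5d and 816 to 905 at P7d, a sum made up mostly of Acta2 (means 701 and 551 FPKM). At P7d 3 of the 8 were higher than at E18.5d and 2 lower. The pericyte markers Rgs5 (34.8 to 103 FPKM as means, log2 change 1.56, adjusted p = 3.76e-05) and Pdgfrb (25 to 42.8 FPKM, 0.75, adjusted p = 0.000305) rose. The smooth muscle markers Cnn1 (-2.22, adjusted p = 1.26e-06) and Acta2 (-0.35, adjusted p = 0.0305) fell. Cspg4 (-0.08, adjusted p = 0.405), Notch3 (0.49, adjusted p = 0.0569) and Myh11 (-0.14, adjusted p = 0.647) of the same list passed in neither direction. The 6 endothelial markers summed to 385 to 415 FPKM at E18.5d, 443 to 477 at P1d and 501 to 517 at P7d, and at P7d 4 of the 6 were higher than at E18.5d and 1 lower. The part of these mural and endothelial markers in the change of Kcnj8 was not tested.

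The receptor subunits Abcc9 (SUR2) and Abcc8 (SUR1) were at 63.6 to 71.7 and 14.1 to 17.6 FPKM at E18.5d, and at 103 to 121 and 25.2 to 27.3 FPKM at P7d. Abcc9 rose by 0.72 (adjusted p = 7.99e-05) and Abcc8 by 0.70 (adjusted p = 0.00109). The ratio of Kcnj11 to Kcnj8 was 1.44 ± 0.0358 (SD, n = 3) at E18.5d, then 1.38 ± 0.268 at P1d and 1.32 ± 0.09 by P7d, and that of Abcc8 to Abcc9 was 0.234 ± 0.0121, 0.24 ± 0.0424 and 0.236 ± 0.0242, with overlap between all stages for both.

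The G protein-gated inward rectifiers, which carry the acetylcholine-activated current of atria and nodes, are Kcnj3 (GIRK1) and Kcnj5 (GIRK4). Kcnj5 was at 29.7, 29.2 and 30.3 FPKM at E18.5d, 30.7, 28.9 and 31.9 at P1d and 27.0, 23.1 and 22.6 at P7d. Its P7d level was below all others, by 0.29 ± 0.07 SE against E18.5d (adjusted p = 0.0114) and by 0.32 ± 0.07 against P1d (adjusted p = 0.00757). Each of 3 other scalings ended the former (adjusted p 0.0555 to 0.41) and the latter (adjusted p 0.0574 to 0.268). Xist as a covariate also ended the latter (adjusted p = 0.0671). Kcnj3 was at 10.5, 11.4 and 11.7 FPKM at E18.5d, 13.6, 16.0 and 11.5 at P1d and 10.1, 10.1 and 9.80 at P7d. Its change of 0.26 across birth did not pass (adjusted p = 0.0651), but did after median-of-ratios scaling (0.33, adjusted p = 0.0247). It fell by 0.41 ± 0.10 from P1d to P7d (adjusted p = 0.0116) and changed by -0.15 between E18.5d and P7d (adjusted p = 0.273). The call from P1d was lost with equal sums (adjusted p = 0.0676) and with Xist as a covariate (adjusted p = 0.0641). The summed atrial markers given above were lower at P7d by more than either gene, and their part was not tested.

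The K2P leak channels gave some of the largest rises. Kcnk3 (TASK-1; chr5:30588170-30625271, plus strand), an acid-sensitive leak channel, was at 8.88, 9.21 and 9.64 FPKM at E18.5d, 11.2, 12.0 and 13.6 at P1d and 24.4, 25.7 and 22.2 at P7d, with no overlap between stages. It rose by 0.37 ± 0.08 SE across birth (adjusted p = 0.00664; 0.21 with adjusted p = 0.154 after scaling to equal sums), by 0.92 ± 0.08 from P1d to P7d (adjusted p = 6.7e-05) and by 1.29 ± 0.08 in all (2.61-fold, adjusted p = 5.6e-06). Kcnk2 (TREK-1; chr1:189207930-189402273, minus strand), a stretch-activated leak channel, was at 0.40, 0.60 and 0.34 FPKM at E18.5d, 0.77, 0.50 and 0.83 at P1d and 2.08, 2.59 and 2.77 at P7d. It had the largest ratio of means of the 40 genes, 5.55 between P7d and E18.5d (log2 change 1.27 ± 0.13, adjusted p = 7.65e-05), and 3.54 between P7d and P1d (1.03 ± 0.13, adjusted p = 0.000325). Kcnk6 (TWIK-2) was at 2.92, 2.66 and 2.88 FPKM at E18.5d, 1.60, 1.86 and 1.77 at P1d and 2.08, 2.22 and 2.15 at P7d. It fell by 0.48 ± 0.08 across birth (adjusted p = 0.00157). Its lower level at P7d than at E18.5d, by 0.28 (adjusted p = 0.021), was lost after median-of-ratios scaling (adjusted p = 0.268) and on leaving out E18.5d heart 1 or 3 or P7d heart 1 or 3 (adjusted p 0.0556 to 0.065). The ratio of Kcnk6 to Kcnk3 was 0.305 ± 0.0208 (SD, n = 3), 0.143 ± 0.0127 and 0.0895 ± 0.00639 at the successive stages. Kcnk5 (TASK-2) was at 0.75 to 0.88 FPKM at E18.5d and 0.47 to 0.57 at P7d, and its change of -0.27 did not pass (adjusted p = 0.069).

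**Figure D5:**
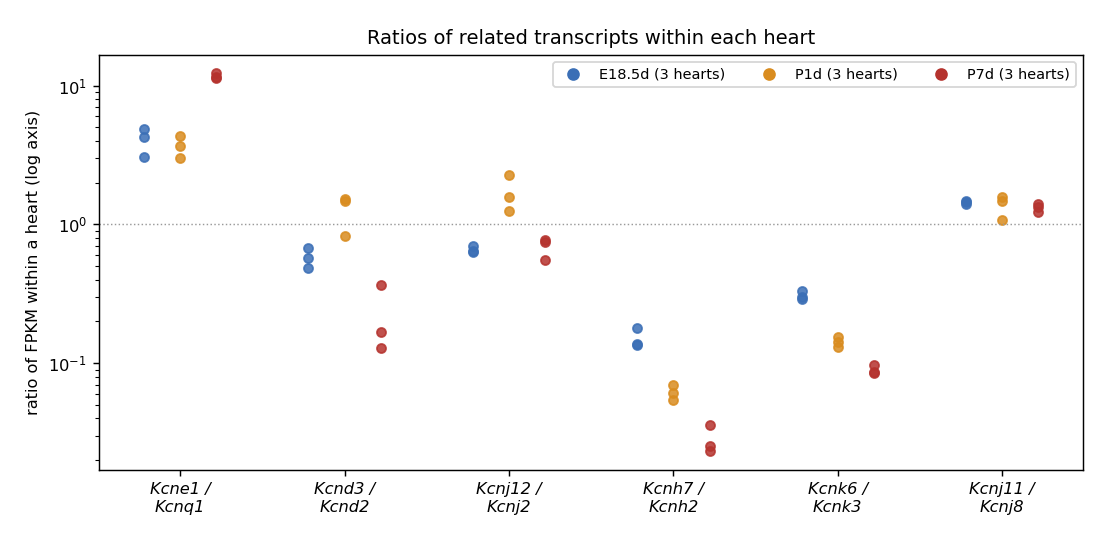
Ratio of the FPKM of related transcripts within each heart (points; 3 a stage) on a log axis, with a dotted line at 1. Kcne1 over Kcnq1 is higher at P7d, Kcnd3 over Kcnd2 and Kcnj12 over Kcnj2 are highest at P1d, Kcnh7 over Kcnh2 and Kcnk6 over Kcnk3 descend over the stages, and Kcnj11 over Kcnj8 overlaps throughout.

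The calcium-activated and sodium-activated channels also differed between paralogs. The SK genes Kcnn1, Kcnn2 and Kcnn3 encode small-conductance channels opened by calmodulin-bound calcium, and their sum was 10.3 to 11 FPKM at E18.5d, 10.9 to 12.5 at P1d and 9.95 to 11.3 at P7d. Kcnn3 (SK3) was at 2.37, 2.57 and 2.57 FPKM at E18.5d, 1.84, 2.10 and 2.11 at P1d and 3.67, 4 and 4.15 at P7d, and rose by 0.71 ± 0.08 SE from P1d to P7d (1.95-fold, adjusted p = 0.000234) and by 0.50 ± 0.08 from E18.5d (adjusted p = 0.00122). Kcnn1 (SK1) was at 1.71, 1.69 and 1.59 FPKM at E18.5d, 1.86, 1.87 and 1.44 at P1d and 0.85, 0.73 and 0.88 at P7d, and fell by 0.58 ± 0.10 from P1d to P7d (adjusted p = 0.00184) and by 0.55 ± 0.10 from E18.5d (adjusted p = 0.00193). So the P7d hearts held the highest Kcnn3 and the lowest Kcnn1 levels of the series. Kcnn2 (SK2), the most abundant, was at 6.59, 6.06 and 6.84 FPKM at E18.5d, 8.65, 6.97 and 8.96 at P1d and 6.23, 5.22 and 6.27 at P7d. Its change of 0.29 across birth did not pass (adjusted p = 0.0502), but did after median-of-ratios scaling (0.36, adjusted p = 0.021). It fell by 0.41 ± 0.10 from P1d to P7d (adjusted p = 0.0125). That call was lost with equal sums (adjusted p = 0.204) and with Xist as a covariate (adjusted p = 0.0555).

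Kcnt2, a sodium-activated Slo2 channel, was at 0.98, 1.15 and 1.25 FPKM at E18.5d, 1.31, 1.60 and 1.10 at P1d and 2.10, 1.64 and 2.24 at P7d. It rose by 0.49 ± 0.12 SE from E18.5d to P7d (1.77-fold, adjusted p = 0.00938). Its rise of 0.36 from P1d (adjusted p = 0.0407) was lost without any heart but E18.5d replicate 1, P1d replicate 2 and P7d replicate 2 (adjusted p 0.0502 to 0.135). The large-conductance BK alpha gene Kcnma1 (0.28 to 0.91 FPKM) and its beta subunit Kcnmb4 (0.85 to 2.13 FPKM) passed in no comparison. The Kv beta subunits Kcnab1 (0.82 to 2.03 FPKM), Kcnab2 (0.37 to 2.31 FPKM) and Kcnab3 (0.30 to 0.86 FPKM), which assemble with Kv1 channels, did not pass either. Kcnab2 varied widely among the P7d hearts, at 0.81, 2.31 and 1.67 FPKM.

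The members next to the limit of 0.5 FPKM were Kcnk5 (0.619), Kcnab3 (0.578) and Kcnma1 (0.574) just inside and Kcnip3 (0.497), Kcnmb1 (0.452) and Kcnn4 (0.37) just outside, as means over the 9 hearts. Of the 52 genes below it, 31 had a mean under 0.1 FPKM and 21 a mean between. Among these low genes were Kcnd1, the remaining Kv4 gene, at a mean of 0.178 FPKM, Kcne2, a KCNE partner of ERG channels, at 0.191 FPKM, and Kcna2, a Kv1 gene, at 0.174 FPKM. Exon overlap with another gene covered at least 10% of the length of 5 of the 40, Kcnj13 and also Kcna6, Kcnj3, Kcnmb4 and Kcnk2, and the opposite gene of Kcnk2 was at 0.0722 FPKM.

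Of 25 listed partner genes of potassium channels, 17 were tested. At P7d against E18.5d 5 were higher and 5 lower, where 11.5% and 34% of all genes were. At P1d against E18.5d 6 were higher and 1 lower, where 16.7% and 25.3% were, and at P7d against P1d 3 and 5, where 13.9% and 26.4% were. Besides the sulphonylurea receptors, Tmem38a, which encodes a potassium-permeable channel of the sarcoplasmic reticulum, rose from 53.7 to 55.8 FPKM at E18.5d to 80.6 to 97.6 at P7d (log2 change 0.67, adjusted p = 0.000124). Nedd4l, a ubiquitin ligase that removes channels from the membrane, fell from 12.7 to 13.4 FPKM to 7.26 to 7.71 (-0.74, adjusted p = 1.98e-05). Among the Iroquois factors, transcription factors known to pattern Kv4 expression in the ventricle wall, Irx3 rose (0.86, adjusted p = 0.000284), as did Irx5 (0.26, adjusted p = 0.0396), and Irx2 fell (-0.81, adjusted p = 0.000178), as did Irx1 (-0.47, adjusted p = 0.0108), while Irx4, the most abundant, was at 19.8 to 20.7 FPKM at E18.5d and 18.0 to 19.6 at P7d (-0.12, adjusted p = 0.334). Dpp6 and Dpp10, auxiliary proteins of neuronal Kv4 channels, were at most 0.63 FPKM in any heart, and the 4 BK gamma genes together at most 1.44 FPKM.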

How the data were processed

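Whole hearts of 3 stages were compared with 3 hearts each, taken from the sample titles. The authors made libraries with a kit that does not mark strand, and their processing notes name STAR and GRCm38/mm10. The counting tool and any versions are not given in the sources used here. The deposited table holds FPKM per gene and heart, as the authors made them, and no counts. Values were transformed to log2(FPKM + 1), the 15565 genes averaging 0.5 FPKM or more over 9 hearts were kept, and 1 limma fit (version 3.58.1, R 4.3.3, eBayes with trend) over all hearts gave the 3 comparisons, with Benjamini-Hochberg adjustment over all genes tested at 0.05. Fold changes are on the log2(FPKM + 1) scale, which understates changes of low genes, and ratios of means are of plain FPKM. Depth was recovered from the steps of low values, of which 88.7% to 91.1% were whole within 0.12 fragments. On simulated data of 15565 genes for P7d against E18.5d, the fit recovered 53 of 100 genes changed by 0.5 and 87 of 100 changed by 1 on the log2 scale. It made 4 false calls. Only these genes were changed, far fewer than the 1788 higher and 5287 lower in the data. As the adjustment depends on that number, the recovery does not measure the sensitivity of the real fit. By a fixed rule, values of each heart are given for genes of known cardiac currents and for the 8 largest rises and falls past the threshold in each comparison. The values of 2 of the 40 genes are not reported here, and both are in the counts and sums. The genes, the partner list and the markers were chosen with earlier results of these data known. Names were matched to GENCODE M21 (48144 of 48820 identifiers). Alternatives were another pseudocount (0.1), other filters, 3 other scalings, model terms and each heart left out. Python 3.11.15, pandas 2.3.3 and numpy 2.4.6 were used. The titles call the hearts biological replicates. Protein sequences were not used here.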

Additional observations from a re-analysis of the deposited data

How the results depend on the processing

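Of 61 called changes of potassium channel genes, none changed direction in any alternative. In all but 1 the hearts of the 2 stages did not overlap, so leaving hearts out could not reverse those. Without the 4 hearts with Xist, all 21 at P7d against E18.5d, all 14 across birth and all 26 at P7d against P1d kept their direction. That alternative left 2 stages with 1 heart, assumed to vary like the others. No call held in it, and with so few hearts it cannot decide the calls. A change of at least 1 on the log2 scale left 4 higher and 2 lower at P7d against E18.5d, 0 and 2 at P1d against E18.5d and 3 and 0 at P7d against P1d. Of all 15565 genes it left 271 and 391, 267 and 466, and 245 and 320 in the same order. With Xist as a covariate, 3 were higher and 5 lower at P1d against E18.5d, and 9 and 5 at P7d against P1d. Of all 15565 genes 1643 and 2975, and 1491 and 2455, were. Besides the calls named above as lost with this covariate, it ended those of Kcne4 and Kcnj12 across birth. At P7d against P1d it also ended those of Kcne3, Kcne4, Kcna5, Kcnq1, Kcnt2 and Kcnj13, and at P7d against E18.5d those of Kcnd2 and Kcnc2. With equal sums, 2 were higher at P1d against E18.5d and 5 lower at P7d against P1d, where 7.93% and 11.8% of all genes were. The replicate block gave 11 higher and 10 lower, 8 and 7, and 12 and 9, at P7d against E18.5d, across birth and at P7d against P1d. Of all 15565 genes it called 1764 and 5183, 2572 and 3822, and 2093 and 3993. The replicate numbers did not pair the hearts. Deviations of same-numbered hearts correlated at -0.04 to 0.1, with 1 of 9 above 0.1, and 8 of 18 best with their own number. The cause of these differences was not tested, other than the fewer hearts.

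Gene changes were checked for reversal only where called, and for the 6 genes of known currents not called at P7d against E18.5d. All reversals seen were among those 6, and other uncalled changes were not checked. Kcna5 was at 0.16 after median-of-ratios scaling, 0.12 after quantile normalization and between -0.10 (without P7d replicate 3) and 0.0049 (without P7d replicate 2) with 1 heart left out. Kcnj2 was at -0.0021 with equal sums and between -0.076 (without P7d replicate 1) and 0.12 (without P7d replicate 3) with 1 heart left out. Kcnj3 was at 0.049 and 0.0084 under the same pair of scalings as Kcna5. Kcnq1 was at 0.037 after median-of-ratios scaling and 0.0705 without the hearts with Xist. Depth limits the genes near 0.5 FPKM, at 12.5 to 22.4 fragments per kilobase.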

Other observations

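Markers of other cell types that a whole heart could hold were summed per heart. The 6 fibroblast markers gave 1038 to 1045 FPKM at E18.5d, 790 to 1011 at P1d and 1139 to 1207 at P7d, and the 6 macrophage and leukocyte markers 30.6 to 39.9, 42.2 to 61 and 44.5 to 49.2. The 6 neuronal markers lay at 30.6 to 37.8 FPKM at E18.5d, 29.3 to 31.2 at P1d and 20.4 to 23 at P7d. That sum was mostly Uchl1 (means 30.2, 28.2 and 19.8 FPKM), and Dbh rose from P1d to P7d (0.46, adjusted p = 0.0315). The 6 glial markers lay at 5.77 to 9.93, 6.53 to 8.78 and 4.2 to 4.9, and the 6 conduction and pacemaker markers at 12 to 14.3, 10.2 to 11.6 and 8.51 to 9.23. Of 5 conduction markers tested at P7d against E18.5d, 3 were lower and 1, Cntn2, higher (0.80, adjusted p = 0.00109). The 5 erythroid markers ranged widely, from 5209 to 15405 FPKM over all hearts, and the 6 skeletal muscle markers from 1531 to 1937. The skeletal muscle sum was made up mostly of Ckm (mean 1665 FPKM over the 9 hearts) and then Acta1 (45.0). Means of Myh8, Tnnt3, Actn3 and Myh3 were 3.01, 1.78, 0.583 and 0.142 FPKM. The 5 lung markers summed to at most 9.72 FPKM except in P1d replicate 1, where they reached 42.4 FPKM. In that heart Scgb1a1 alone was at 42.1 FPKM, and each other lung marker was at most 0.14 FPKM. The part of these shifts in the potassium channel values was not tested.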
